A study of Mus musculus with 4 samples.

Results

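The genes described here encode the MHC class II antigen presentation pathway and were chosen by symbol. They are Cd74, H2-Aa, H2-Ab1, H2-Eb1, H2-Oa, H2-Ob, H2-DMa, H2-DMb1 and Ciita, 9 of the 27998 genes counted. The list was drawn up with the difference between Nup358-/- and control cells in these same libraries in view, so that difference is given as a description, with no test, for each of the 9 genes. The data are single-cell RNA counts from 4 libraries of LSK cells. LSK cells are bone marrow cells sorted as lacking lineage markers (Lin-) and carrying Sca1 and cKit, the fraction that holds hematopoietic stem cells and multipotent progenitors. The study asked what the loss of Nup358, a nucleoporin of the cytoplasmic side of the nuclear pore also named Ranbp2, changes in these progenitors.

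Control libraries, labeled wild-type, came from Nup358 fl/fl mice without Cre, and Nup358-/- libraries, labeled knock-out, came from Nup358 fl/fl mice that also carried R26-CreERT2. R26-CreERT2 is a tamoxifen-dependent Cre expressed from the Rosa26 locus, so deletion was not restricted to blood cells. Both genotypes therefore carried the floxed alleles, and in the study's bone marrow experiments both received tamoxifen, on 3 consecutive days. Mice were 9 to 12 weeks old. Each library was a pool of 3 bone marrows, with 2 libraries per genotype, so that each p-value measures only the spread between pooled libraries. Ranbp2 was at 127 and 101 CPM (UMIs of a gene per 1000000 UMIs) in control and at 124 and 126 in Nup358-/- libraries. These 3′ counts need not read the deleted exons and do not check the labels.

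Of 25242 barcodes, 10936 also occurred in another library with at least 3-fold more UMIs there. Their share was 14.8% and 81.8% of the barcodes in control libraries 1 and 2, and 65.3% and 18.8% in Nup358-/- libraries 1 and 2. These barcodes were left out, and 14041 cells remained, 7830 and 1200 in the control and 1589 and 3422 in the Nup358-/- libraries. The median depth of those cells was 6251 to 17707 UMIs. Library control 1 was the shallowest per cell and the largest.

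MHC class II molecules are pairs of an alpha and a beta chain that carry peptides from the endosome to the surface for CD4+ T cells. H2-Aa and H2-Ab1 encode the chains of I-A, and H2-Eb1 the beta chain of I-E. The invariant chain Cd74 guides the pair to the endosome and blocks its groove, the H2-DM dimer (H2-DMa, H2-DMb1) exchanges the remaining fragment for peptide, and the H2-O dimer (H2-Oa, H2-Ob) restrains H2-DM. The coactivator Ciita switches these genes on through proteins bound at an X box and a Y box in their promoters, and B cells, dendritic cells and macrophages are the cells best known to use the pathway.

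The promoters are shown because the X box and Y box are known from class II genes and the choice of genes did not use them. The H2 genes lie on chromosome 17 between 34092340 and 34316674, and Ciita lies at chr16:10480059-10528418, on GRCm38. RefSeq promoter windows on GRCm38.p6 matched 6 of the 9 genes with 7 windows. H2-Ab1, Ciita and Cd74 were not matched. A search on the coding strand of each gene for the X-box core GNAAC followed by the Y-box core GATTGG, with 15 to 35 bases between them, found the pair in 5 genes. H2-DMa had none in either of its windows. Such a pair was held by 396 of 32851 RefSeq promoters, or 1.21%. The Y core alone was in 16.1% and the short X core in 84.8%. Stretches of 4 of the genes are printed 5′ to 3′ on the coding strand with both cores in capitals.
H2-Aa: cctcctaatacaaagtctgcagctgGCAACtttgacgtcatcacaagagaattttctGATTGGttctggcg
H2-Eb1: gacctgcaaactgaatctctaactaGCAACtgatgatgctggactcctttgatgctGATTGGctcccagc
H2-Ob: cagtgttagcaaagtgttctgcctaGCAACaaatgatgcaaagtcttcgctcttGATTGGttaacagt
H2-Oa: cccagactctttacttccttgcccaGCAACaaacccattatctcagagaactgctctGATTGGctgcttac
These lie at chr17:34287859-34287929 (minus strand), chr17:34305751-34305820, chr17:34238793-34238860 and chr17:34092278-34092348 (plus strand), in the order printed. The cores were 27, 26, 24 and 27 bases apart in that order and 27 in H2-DMb1. The first pair of genes and the second pair thus hold the same cores at nearly the same distance. A match is a description of letters and not a measured binding site.

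Over all kept cells, Cd74, the alpha and beta chains and Ciita were higher in Nup358-/- libraries, while both H2-O chains and both H2-DM chains were lower. Levels are CPM of the UMIs summed over cells of a library. They are 3′ UMI counts, which do not scale with transcript length. Cd74 was at 57.3 and 55.9 CPM in control libraries 1 and 2 and at 261 and 213 CPM in Nup358-/- libraries 1 and 2, a log2 difference of 2.02 (SE 0.16). H2-Aa was at 19.6 and 12.7 in control and at 63.1 and 54.8 in Nup358-/- libraries, a log2 difference of 1.82 (SE 0.21). H2-Eb1 followed H2-Aa, with 14.1 and 10.6 CPM against 46.1 and 46.2 CPM. H2-Ab1 differed least of the chains, with 63.5 and 51.0 CPM against 102 and 108 CPM, a log2 difference of 0.84 (SE 0.15). Ciita was near the lower end of what was counted, with 44 and 13 UMIs in control and 74 and 105 UMIs in Nup358-/- libraries, or 0.745 and 0.690 against 2.26 and 1.95 CPM. In none of these 5 genes did the genotypes overlap.

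The 4 genes of the editing step went the other way. H2-Ob was at 18.5 and 19.5 CPM in control and at 8.64 and 8.60 CPM in Nup358-/- libraries, a log2 difference of -1.18 (SE 0.15). H2-Oa, its partner, was at 18.1 and 17.7 against 14.1 and 13.5 CPM. H2-DMb1 was at 32.3 and 34.7 against 24.4 and 23.4 CPM. H2-DMb1 has a near-identical neighbor, H2-DMb2, so its counts are uncertain, and H2-DMb2 was at 2.46 and 3.50 against 4.86 and 3.42 CPM. H2-DMa had the highest counts of the 9 genes in control libraries and differed least between genotypes, with 180.1 and 167 CPM in control and 151 and 163 CPM in Nup358-/- libraries. Both genes of each dimer therefore lay in the same direction, and the difference was larger for H2-Ob than for H2-Oa.

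Both Nup358-/- libraries were above both controls for 5 of the 9 genes, and 29.9% of the 13779 genes past the count filter did the same. Both were below for the other 4, as were 24.5% of genes tested. With each cell thinned to 1000 UMIs, 5 were above and 1 in place of 4 was below, H2-Oa turned to 0.29 and H2-Ob was at -0.31. The median log2 difference was 0.84 over the 9 genes and -0.01 over all genes tested. Nothing is read from these shares, since the genes were chosen on this contrast. With every deposited barcode kept, copies included, the log2 difference was 1.80 for Cd74 and -1.003 for H2-Ob, and the same 5 and 4 genes lay above and below. In summed cells, more cells of a type and more RNA per cell cannot be told apart, which is why the same genes were next read by cell type.

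**Figure D1:**
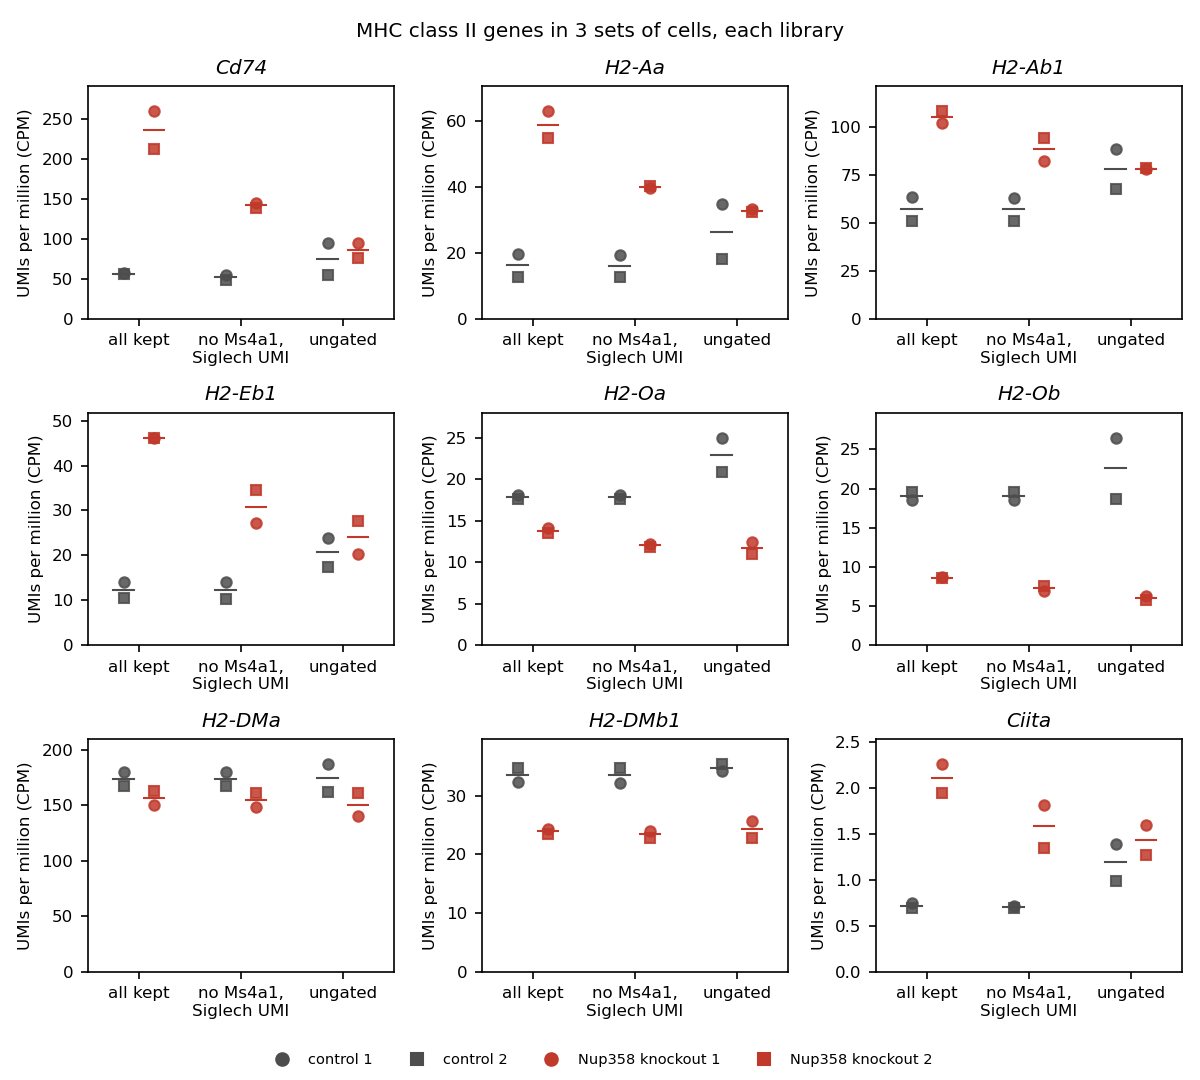
CPM of each of the 9 genes in the 2 control and 2 Nup358-/- libraries, over all kept cells, over cells with no UMI of Ms4a1 or Siglech, and over cells that passed no lineage gate. Points are libraries and bars are means of 2. Cd74 and the chain genes draw together from left to right, while H2-Ob stays lower in Nup358-/- libraries in each set.

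Cells were gated by marker lists that hold none of the 9 genes. A cell passed a list with UMIs of at least 2 of its genes that made up at least 0.1% of its UMIs, and the list with the largest share gave the gate. Of the 14041 cells, 8625 passed a list and 5416 did not and are called ungated. For 2215 cells (15.8%) the call lay near the limit, and 1932 cells passed more than 1 list. The mature B gate held 3 and 1 control cells and 86 and 163 Nup358-/- cells, and the plasmacytoid dendritic gate 2 and 0 control cells and 29 and 53 Nup358-/- cells. The plasma gate held 17 and 6 control cells and 51 and 53 Nup358-/- cells. The neutrophil gate held 53.2% and 30.3% of control cells and 23.3% and 12.7% of Nup358-/- cells. A Kit UMI was found in 1.16% and 3.07% of the mature-B-gated Nup358-/- cells and in 75.5% and 64.3% of the ungated ones. The medians of these cells were 1911.5 and 1094 against 18179 and 14742.5 UMIs, so the shares are not comparable. Kit was at 8.42 and 20.5 CPM in the former, from 2 and 7 UMIs in all, and at 100.4 and 82.0 CPM in the latter.

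Levels of the chain genes were highest in the few cells of the classical dendritic gate. Cd74 was at 25259.6 CPM in the 4 such cells of control library 1, there were none in control library 2, and it was at 19986 and 25868 CPM in the 3 and 9 Nup358-/- cells. H2-Ab1 was at 10834, 7999 and 10926 CPM in the same libraries, and Ciita at 112, 279.8 and 203 CPM. The Ciita values rest on 2 to 13 UMIs each.

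The mature B gate of Nup358-/- libraries came next in Cd74, and it had the highest H2-Ob of the sums of at least 3 cells. In Nup358-/- libraries its cells had 11179 and 9859 CPM of Cd74, 2668 and 2163 CPM of H2-Aa and 67.3 and 109 CPM of Ciita. H2-Ob was at 227 and 241 CPM and H2-Oa at 248 and 223 CPM, so the H2-O chains were at similar levels there. The 3 and 1 control cells of this gate are too few to compare.

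Plasmacytoid-dendritic-gated Nup358-/- cells had 3975 and 2704 CPM of Cd74 and 1442 and 855 CPM of H2-Aa, but only 26.2 and 5.18 CPM of H2-Ob against 122 and 139.8 CPM of H2-Oa. The H2-O chains were thus unequal in this gate and nearly equal in the mature B gate. The H2-Ob values of this gate rest on very few UMIs, from 29 and 53 cells. In plasma-gated cells the invariant chain was high beside the class II chains. Cd74 was at 3786 and 8942 CPM in the 17 and 6 control cells and at 2284 and 3189 CPM in Nup358-/- cells, while H2-Aa was at 24.4 and 26.1 against 67.6 and 45.1 CPM. The control values of H2-Aa rest on very few UMIs, 0.495 per 100 of 808 Cd74 UMIs. Pro-B-and-pre-B-gated cells, of which Nup358-/- library 2 held 128 and the others at most 10, had 124 CPM of Cd74 in that library and 9.43 CPM of H2-Ob.

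**Figure D2:**
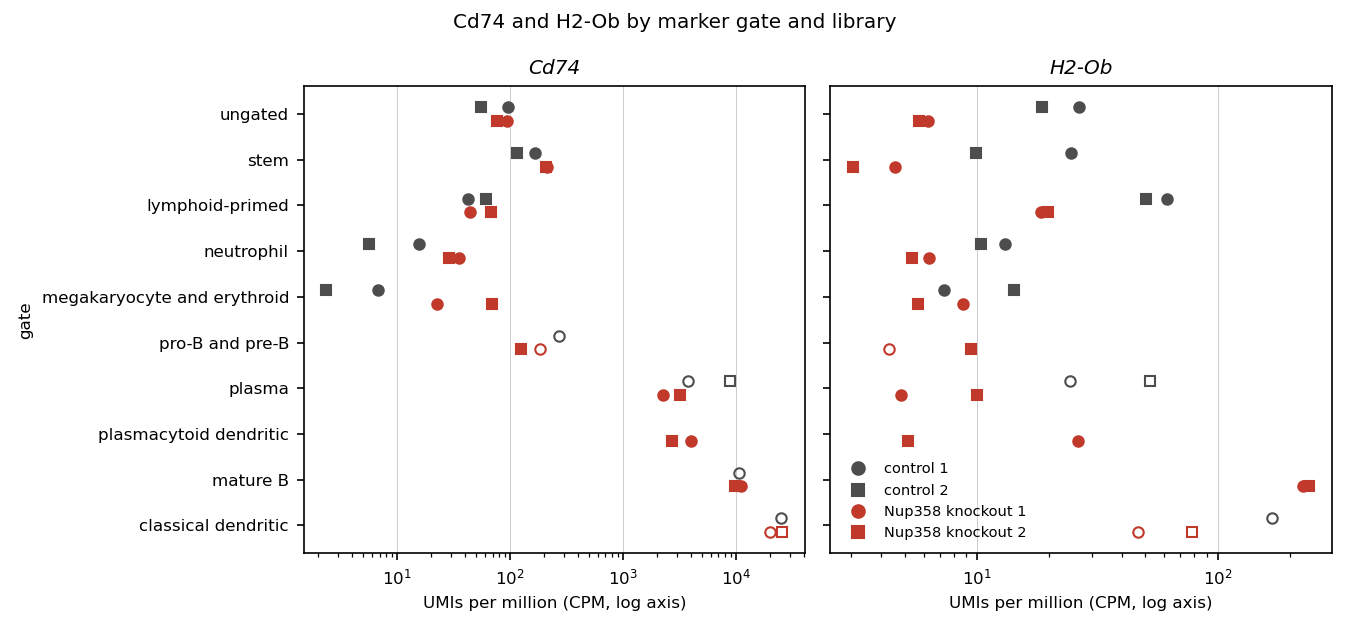
Cd74 and H2-Ob in CPM, on a log axis, by marker gate and library. Filled points are sums of at least 20 cells and open points are sums of fewer, and sums of under 3 cells or with no UMI are not drawn. Cd74 spans from 2.36 CPM (1 UMI) in the megakaryocyte and erythroid gate to 25868 CPM in the classical dendritic gate. H2-Ob is lower in Nup358-/- than in control libraries in the ungated, stem, lymphoid-primed and neutrophil gates.

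Few cells held most of the Cd74 RNA of Nup358-/- libraries. The mature B gate held 0.769% and 0% of the Cd74 UMIs of the control libraries and 31.1% and 29.3% of those of the Nup358-/- libraries, from 0.726% and 0.633% of all their UMIs. The plasma gate held 13.8% and 32.5% against 22.2% and 16.7%. Ungated cells held 32.3% and 31.8% against 18.7% and 22.0%. For H2-Ob the neutrophil gate held 48.5% and 22.6% of UMIs in control libraries, and the mature B gate held 19.1% and 17.7% in Nup358-/- libraries and none in control libraries. Among cells with no UMI of Ms4a1 or Siglech, the neutrophil gate contributed 8.97 and 4.42 CPM of H2-Ob in control and 1.97 and 0.933 CPM in Nup358-/- libraries. The lymphoid-primed gate contributed 3.20 and 8.05 against 1.08 and 1.77 CPM. The mature B part of both genes thus differed between genotypes.

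**Figure D3:**
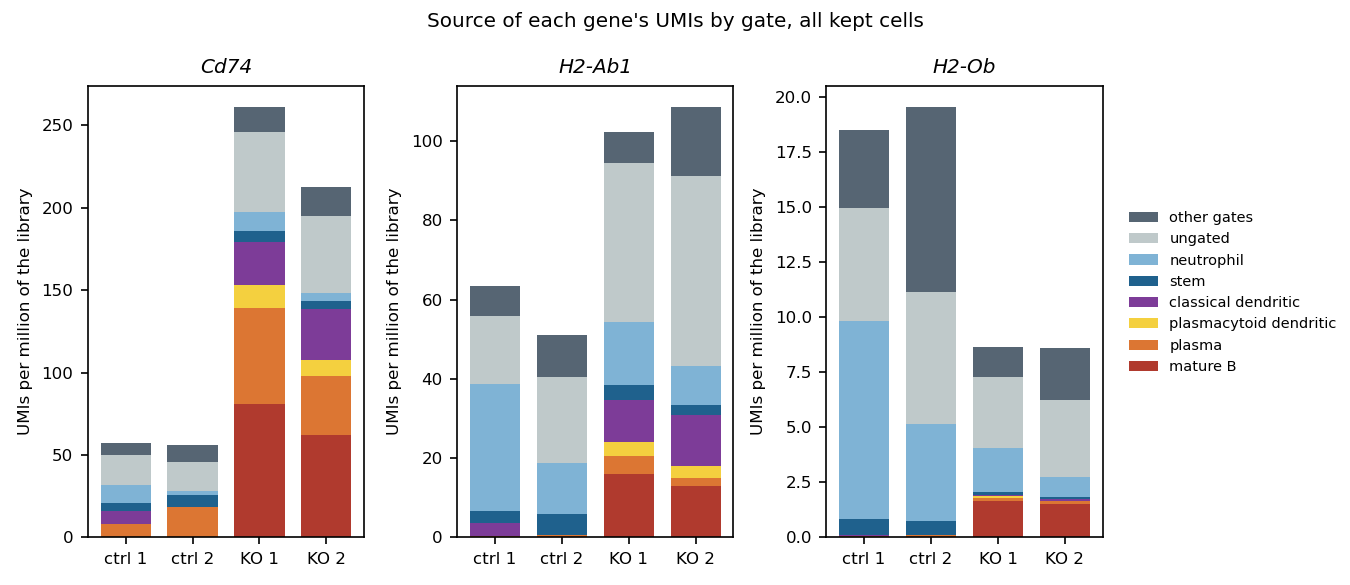
CPM of Cd74, H2-Ab1 and H2-Ob over all kept cells of each library, split into the part that each marker gate contributed. The mature B part is 31.1% and 29.3% of the Cd74 bar in Nup358-/- libraries and at most 0.769% in control libraries, and the H2-Ob bars are shorter in Nup358-/- libraries although they gain a mature B part.

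To see whether the difference stayed without B cells and plasmacytoid dendritic cells, the cells with a UMI of Ms4a1, which encodes CD20, or of Siglech were set apart. A UMI of Ms4a1 was found in 3 and 7 control and 101 and 156 Nup358-/- cells, and a UMI of Siglech alone in 8 and 0 control and 40 and 75 Nup358-/- cells. The cells with an Ms4a1 UMI held 2.63% and 13.8% of Cd74 UMIs in control and 39.3% and 29.9% in Nup358-/- libraries. They had 3959.8 and 4073 CPM of Cd74 and 69.6 and 77.4 CPM of H2-Ob in Nup358-/- libraries.

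In the remaining cells Cd74 was at 54.9 and 48.4 CPM in control and at 145 and 139 CPM in Nup358-/- libraries. The log2 difference went from 2.02 to 1.43 (SE 0.14) and the genotypes still did not overlap. H2-Aa was at 19.3 and 12.6 against 39.8 and 40.3 CPM, and H2-Eb1 at 14.02 and 10.4 against 27.2 and 34.6 CPM. H2-Ab1 was at 63.2 and 50.9 against 82.3 and 94.5 CPM and Ciita at 0.712 and 0.693 against 1.81 and 1.35 CPM. All 5 genes were closer between genotypes than over all cells, and H2-Ob was further apart, at 18.5 and 19.6 against 6.96 and 7.54 CPM, a log2 difference of -1.42 (SE 0.16). H2-Oa was at 18.1 and 17.6 against 12.2 and 11.9 CPM, and H2-DMb1 at 32.2 and 34.7 against 24.0 and 22.8 CPM. Again 5 of 9 genes lay above and 4 below with no overlap, as did 29.1% and 25.2% of the 13701 genes tested. The same 5 and 4 were found with every deposited barcode kept, where the log2 difference was 1.195 for Cd74 and -1.22 for H2-Ob.

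These cells still included other antigen-presenting cells. All 9 genes of the mature B list had UMIs in each of the libraries before the removal, with a summed level of 44.1 and 43.4 CPM in control and 118 and 181 CPM in Nup358-/- libraries, and it was 43.5 and 40.8 against 49.7 and 126 CPM after it. The 5 genes of the plasma list summed to 56.2 and 128 against 380 and 336 CPM after it. Ungated cells contributed 18.5 and 17.9 CPM of the Cd74 level in control and 47.5 and 44.0 CPM in Nup358-/- libraries, the largest part of the remainder in each. A contribution counts the number of cells as well as their level. Ungated cells were 28.2% and 38.2% of all kept control cells and 49.2% and 57.5% of all kept Nup358-/- cells. The Cd74 level within ungated cells, given below, overlapped between genotypes. Plasma-gated cells contributed 6.19 and 10.6 CPM against 34.0 and 24.9 CPM, classical-dendritic-gated cells 7.63 and 0 against 27.2 and 31.5 CPM, and mature-B-gated cells 0.153 and 0 against 5.98 and 13.9 CPM. The part of each gate in the remaining difference was not tested.

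The wider removal left out every cell with a UMI of any gene of the mature B, plasma, plasmacytoid dendritic, classical dendritic or macrophage lists, and the pro-B and pre-B, monocyte and lymphoid-primed gates. It left 3776 and 318 control and 320 and 875 Nup358-/- cells. Cd74 was at 25.1 and 33.1 CPM in control and at 38.8 and 67.7 CPM in Nup358-/- libraries, a log2 difference of 0.91 (SE 0.29). Without Nup358-/- library 2 it was 0.44, and that of H2-Aa, 0.75 (SE 0.37) with all libraries, was -0.02. H2-Aa overlapped, at 12.4 and 15.7 against 13.6 and 31.0 CPM, and so did Ciita, with 15 and 4 against 3 and 13 UMIs. H2-Ob was at 17.5 and 14.9 against 5.43 and 5.16 CPM, a log2 difference of -1.63 (SE 0.23). Of the 8 genes past the filter here, 3 were above in both Nup358-/- libraries and 4 below, beside 23.5% and 26.3% of the 11550 genes tested. With every deposited barcode kept, 1 was above and 4 were below. A removal that turns on single UMIs takes more cells from deeper libraries, and the 4 libraries differed in depth.

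Among ungated cells, the chain genes did not separate the genotypes with the gates as set here. Cd74 was at 95.1 and 55.4 CPM in control and at 94.9 and 76.4 CPM in Nup358-/- libraries, a log2 difference of 0.22 (SE 0.22). H2-Aa was at 34.8 and 18.2 against 33.2 and 32.5 CPM, and H2-Ab1 at 88.3 and 67.6 against 78.0 and 78.6 CPM. H2-Eb1 was at 24.0 and 17.4 against 20.4 and 27.7 CPM and Ciita at 1.40 and 0.992 against 1.60 and 1.28 CPM. The genotypes overlapped in each of these 5 genes. Control library 1 was the higher control in all 5, and without it the log2 difference of Cd74 was 0.61.

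The H2-O and H2-DM genes did separate them. H2-Ob was at 26.5 and 18.7 CPM in control and at 6.23 and 5.74 CPM in Nup358-/- ungated cells, a log2 difference of -1.90 (SE 0.19), and H2-Oa at 25.02 and 20.8 against 12.5 and 11.0 CPM, a log2 difference of -0.94 (SE 0.17). H2-DMb1 was at 34.2 and 35.4 against 25.7 and 22.8 CPM, and H2-DMa at 187 and 162 against 140.1 and 161 CPM, where the neighboring values of control library 2 and Nup358-/- library 2 nearly met. With gates at 0.1% of UMIs, none of the 9 genes was above in both Nup358-/- libraries and 4 were below, beside 25.4% and 30.6% of the 12248 genes tested. With gates at 0.2% of UMIs, 2 were above and 4 below, and the log2 difference of Cd74 was 0.69. With every deposited barcode kept, the log2 difference was 0.03 for Cd74 and -1.68 for H2-Ob. The median of the 9 genes was 0.04.

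Ungated cells were also split by their own Cd74 share, as a description. Cells in which Cd74 made up at least 0.1% of UMIs were 28 (1.27%) and 5 (1.09%) of the ungated control cells and 11 (1.41%) and 31 (1.58%) of the ungated Nup358-/- cells. They held 69.8% and 64.8% of the Cd74 UMIs in control and 47.3% and 27.9% in Nup358-/- libraries. The other ungated cells were at 29.1 and 19.6 CPM in control and 50.3 and 55.6 CPM in Nup358-/- libraries. The split rests on few cells and was made after the values were seen. It sorts cells by the gene that is then compared, and its limit takes more UMIs in deeper cells. No difference between genotypes is read from it.

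After each cell was thinned to 1000 UMIs, a Cd74 UMI was found in 2.80% and 3.69% of all control cells and 14.4% and 12.0% of all Nup358-/- cells. Exact 95% intervals (Clopper-Pearson), which cover counting error only, were 2.44% to 3.19% in control library 1 and 10.9% to 13.1% in Nup358-/- library 2. Without Ms4a1 and Siglech UMIs the shares were 2.75% and 3.46% against 7.93% and 8.20%, and among ungated cells 3.46% and 3.08% against 4.88% and 6.58%. Unthinned, the ungated shares were 10.4% and 12.9% against 36.0% and 31.2%, and the ungated cells had medians of 4510 and 12092.5 UMIs in control and 18179 and 14742.5 UMIs in Nup358-/- libraries. The share in the neutrophil gate was 0.962% and 1.10% in control and 3.50% and 2.07% in Nup358-/- cells after thinning. The neutrophil-gated cells had medians of 8666.5 and 19465 UMIs in control and 23929 and 20306 UMIs in Nup358-/- libraries. With 2 libraries per genotype, an exact permutation test over libraries cannot give a p below 0.333.

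RNA released into the droplets by other cells can give such UMIs. Cd79a, a B cell receptor subunit, was at 0 in the ungated cells of both control libraries, where 3 UMIs would have been 0.262 and 0.496 CPM. It was at 3.09 and 2.49 CPM in those of Nup358-/- libraries. The sum of the mature B list was not higher there, at 41.6 and 33.7 CPM in control and 31.5 and 33.5 CPM in Nup358-/- ungated cells. Of its 9 genes, however, 7 and 4 were detected in control and 9 and 9 in Nup358-/- ungated cells, a count that also rises with depth. In the neutrophil gate this list summed to 42.3 and 33.4 against 34.3 and 39.7 CPM, with 7 and 3 against 7 and 5 genes detected. Per 100 Cd74 UMIs, Nup358-/- cells had 33.1 Cd79a UMIs in the mature B gate and 16.5 in the lymphoid-primed, 14.2 in the neutrophil, 9.29 in the megakaryocyte and erythroid and 0.398 in the stem gate, with 3.26 among ungated cells. In control cells this ratio was 0.440 in the neutrophil, 0.321 in the lymphoid-primed and 0.231 in the stem gate and 0 among ungated cells. Cd79a is itself a gene of the mature B list, so the gating bears on these ratios. The part of free RNA in the Cd74 of these gates was not tested.

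In the neutrophil gate, the chain genes were low and again higher in Nup358-/- libraries. Cd74 was at 15.8 and 5.61 CPM in control and at 35.3 and 28.9 CPM in Nup358-/- cells, a log2 difference of 1.48 (SE 0.35), which was 2.43 without control library 1. H2-Aa was at 6.87 and 1.87 against 16.1 and 13.02 CPM and H2-Eb1 at 5.39 and 0.623 against 11.6 and 10.7 CPM. H2-Ob was at 13.1 and 10.3 against 6.29 and 5.33 CPM and H2-DMb1 at 31.2 and 35.3 against 15.6 and 21.7 CPM. Of the 8 genes past the filter, 4 lay above and 3 below, beside 26.2% and 25.3% of the 11448 genes tested. Ciita had 10, 1, 8 and 3 UMIs and was under the filter. The cells of this gate differed between genotypes in other markers. More than 1 list was passed by 25.8% and 25.5% of its control cells and 5.12% and 5.52% of its Nup358-/- cells. The monocyte list summed there to 774 and 862 against 279 and 133 CPM. Whether this mix had a part in the differences above was not tested.

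In the megakaryocyte and erythroid gate Cd74 was at 6.78 and 2.36 CPM in control and at 22.4 and 69.4 CPM in Nup358-/- cells, from 26 to 252 cells a library. The control values rest on 13 and 1 UMIs, so the size of the difference is uncertain. The log2 difference of 3.07 (SE 0.48) was 1.96 without Nup358-/- library 2 and 4.23 without control library 1. Nup358-/- library 2 also had 13 UMIs of Cd79a in this gate and 8 of the 9 mature B genes detected, while the 3 others had none of Cd79a and 1 or 2 of those genes. Of the 8 plasmacytoid dendritic genes, 1 and 2 were detected in control and 6 and 7 in Nup358-/- cells, with Siglech only in the latter. Their summed level was 79.8 and 52.0 against 46.0 and 61.4 CPM. The part of such RNA in the Cd74 of this gate was not tested. Cd74 and H2-DMa lay above and no gene below, beside 20.3% and 18.2% of 8461 genes. H2-Ob overlapped there, at 7.30 and 14.2 against 8.70 and 5.69 CPM.

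Stem-gated cells had more Cd74 than ungated cells and the lymphoid-primed, neutrophil and megakaryocyte and erythroid gates, in each library. Cd74 was at 167 and 116 CPM in control and at 211 and 208 CPM in Nup358-/- cells, a log2 difference of 0.48 (SE 0.19). H2-Aa was at 72.8 and 43.5 against 58.6 and 56.5 CPM, with overlap, and so were H2-Ab1 and H2-Eb1. H2-Ob was at 24.7 and 9.85 against 4.58 and 3.05 CPM, a log2 difference of -2.31 (SE 0.52), and H2-Oa at 32.1 and 31.2 against 16.5 and 14.5 CPM. The Nup358-/- values of H2-Ob rest on very few UMIs, 4 and 4 among the stem-gated cells with no UMI of Ms4a1 or Siglech. With 1 library left out, the H2-Ob difference was -2.71 to -1.48. Cd74 was the 1 gene of 8 above and the H2-O chains the 2 below, beside 30.9% and 22.2% of 9322 genes. Genes of the lists of other cell types had UMIs in stem-gated cells, but such sums do not by themselves show those cells. In the megakaryocyte and erythroid gate, Cd79b alone of the mature B list gave 21.3 CPM in control library 2. Smim5 alone of the plasmacytoid dendritic list gave 79.8 CPM there in control library 1. In the stem gate, UMIs of 4 or 5 of the 9 mature B genes were found. Their summed level was 36.7 and 37.8 CPM in control and 44.8 and 36.6 CPM in Nup358-/- stem-gated cells. The plasmacytoid dendritic list, with 2 or 3 of 8 genes detected and Siglech and Ccr9 at 0, summed to 40.1 and 36.1 against 32.0 and 22.9 CPM. The classical dendritic list, with 1 to 4 of 9 genes detected and Itgax and Clec9a at 0, summed to 5.74 and 4.11 against 10.1 and 4.58 CPM. The macrophage list, with 3 to 6 of 8 genes detected, summed to 7.46 and 13.1 against 16.5 and 13.7 CPM. Whether other cell types had a part in the Cd74 of the stem gate was not tested.

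Lymphoid-primed cells, gated by genes such as Dntt and Flt3, had the highest H2-Ob and H2-DMa of these gates in each library. H2-Ob was at 61.6 and 50.6 CPM in control and at 18.5 and 19.7 CPM in Nup358-/- cells, a log2 difference of -1.53 (SE 0.20). H2-DMa was at 281 and 232 against 183 and 213 CPM, and H2-DMb1 at 38.2 and 29.2 against 20.7 and 21.0 CPM. Cd74 overlapped, at 42.4 and 61.0 against 44.6 and 68.3 CPM. None of 8 genes past the filter was above and 4 were below, beside 23.5% and 27.0% of 10196 genes. Whether the difference between genotypes varied from gate to gate was not tested.

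Gates were also compared with ungated cells of the same library, with both genotypes in the fit and the library as a block. This contrast did not enter the choice of genes, but the genes and marker lists were set with earlier results of these data known. The p-values do not take that into account. The 9 genes were tested there by the quasi-likelihood method of edgeR, adjusted over all genes after Benjamini and Hochberg. Stem-gated cells were higher in Cd74, by 0.99 on the log2 scale (SE 0.09, adjusted p = 2.9e-06), in H2-Aa by 0.83 (SE 0.11, adjusted p = 6.4e-05) and in H2-Eb1 by 0.90 (SE 0.11, adjusted p = 4.7e-05). Each of the 3 was higher in 4 of 4 libraries. H2-Ab1 did not pass, with a log2 difference of 0.17 (SE 0.08). H2-DMa was lower by a log2 difference of -0.23 (adjusted p = 0.039), a call lost without any 1 of control library 1, control library 2 and Nup358-/- library 2 (adjusted p from 0.089 to 0.21). Of the genes tested in this gate, 15.2% passed as higher and 18.5% as lower.

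Lymphoid-primed cells were higher in H2-Ob by 1.47 (SE 0.11, adjusted p = 1.2e-08) and in H2-DMa by 0.50 (SE 0.05, adjusted p = 1.7e-07), both in 4 of 4 libraries. Cd74, H2-Aa and H2-Eb1 were lower, with log2 differences of -0.48, -0.41 and -0.41. None of these 3 passed without Nup358-/- library 1, where the adjusted p was 0.17 for Cd74, and Cd74 and H2-Eb1 did not pass without control library 1. Of all genes tested, 10.2% passed as higher and 10.5% as lower in this gate. Much of the ungated Cd74, the reference for each gate, came from few cells. Ungated control cells with Cd74 at 0.1% of UMIs or more held 69.8% and 64.8% of it. After thinning, the mean share with a Cd74 UMI was 2.24% in lymphoid-primed and 3.27% in ungated control cells. In Nup358-/- cells it was 6.99% and 5.73%. A fit without the few high cells was not run.

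Neutrophil-gated cells were lower in 7 of 9 genes. Cd74 differed by -1.88 on the log2 scale (SE 0.23, adjusted p = 4.3e-04), Ciita by -1.79 (SE 0.37, adjusted p = 4.8e-03), H2-Aa by -1.61 and H2-Eb1 by -1.58. H2-Oa (-0.39) and H2-Ob (-0.47) passed, and neither did without control library 1 or without control library 2. H2-DMa was higher by 0.18 (SE 0.06, adjusted p = 0.029) and did not pass without either Nup358-/- library. In this gate 23.2% of genes passed as higher and 21.0% as lower. Megakaryocyte-and-erythroid-gated cells were lower in 6 of 8 genes, with -1.49 (SE 0.31, adjusted p = 8.4e-04) for Cd74 and -0.90 (SE 0.10, adjusted p = 4.4e-07) for H2-DMa, and higher in 0, also at an unadjusted p under 0.05 and in DESeq2. Without control library 1, 3 of the 6 passed, and the difference of Cd74 was -0.86, against -3.05 without Nup358-/- library 2. In this gate 13% of genes passed as higher and 13.3% as lower.

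**Figure D4:**
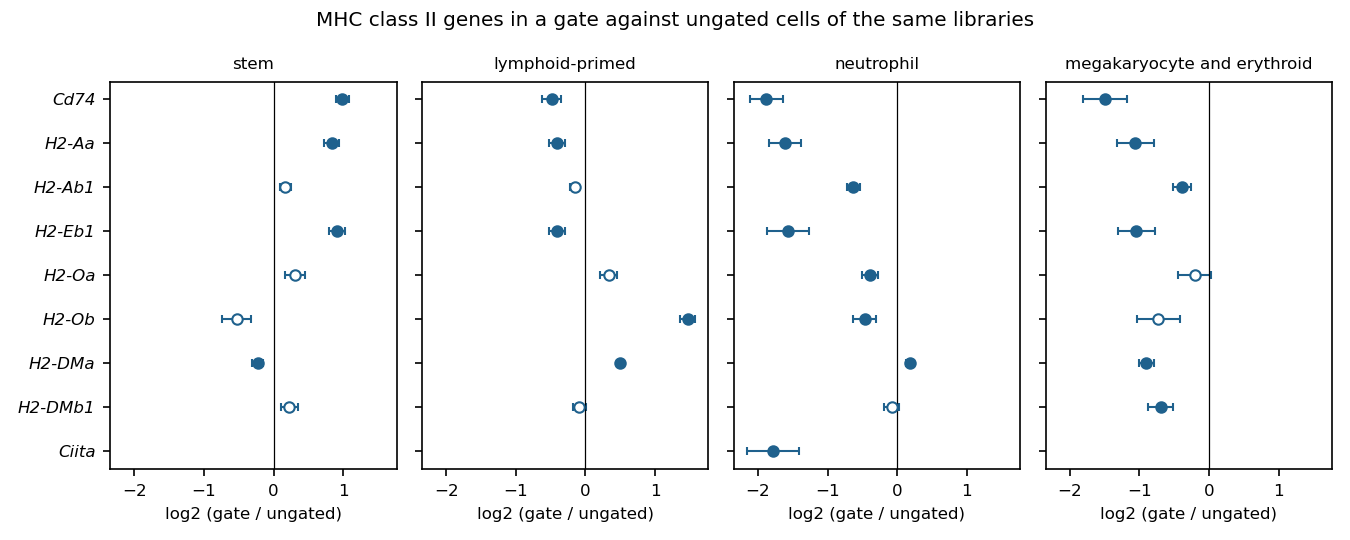
Log2 difference of each gene between a gate and ungated cells of the same libraries, with bars of 1 standard error. Filled points passed an adjusted p of 0.05. Cd74 lies at 0.99 in the stem gate and at -1.88 in the neutrophil gate, and H2-Ob at 1.47 in the lymphoid-primed gate.

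Across 30 sums of at least 20 cells, 1 for each library and gate, the chain genes moved closely together, on log2(CPM + 5). Pearson's r was 0.978 between H2-Aa and H2-Ab1 and 0.937 between Cd74 and H2-Eb1. It was lowest between Cd74 and H2-Ob, at 0.432, and was 0.669 between H2-Oa and H2-Ob. The sums share libraries and depth, and these are descriptions. Sums of the mature B, plasma, plasmacytoid dendritic, pro-B and pre-B, T and NK, and basophil and mast gates came only from Nup358-/- libraries. Gate and genotype cannot be told apart in those sums. The 10 other genes whose pattern was most like the summed level of the 9 genes, of 13215 with at least 50 UMIs, had r from 0.925 to 0.897. They were Adam19 (86 UMIs in all), Irf5, Cytip, Btla, Fcrla, 5031414D18Rik, Plekhm3, Hvcn1, Gpr18 and Ctss. Btla is an inhibitory receptor of lymphocytes, and Ctss is cathepsin S, the protease that cuts the invariant chain.

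Other genes of the pathway were tested between genotypes with the same edgeR test. Their lists were also set with earlier results of these data known, which these p-values do not take into account. Of the processing, costimulation and turnover genes, 14 passed the count filter and 1 rose over all cells. This was March1, the ligase that removes class II from the surface, at 0.339 and 0.318 CPM in control and 2.32 and 1.37 CPM in Nup358-/- libraries (log2 difference 2.42, SE 0.42, adjusted p = 0.034). It did not pass without Nup358-/- library 1, with an adjusted p of 0.083, or once Ms4a1 and Siglech cells were set apart, at 0.305 and 0.320 against 0.731 and 0.571 CPM. None of the 13 tested there passed, while 1 had an unadjusted p under 0.05 and DESeq2 called 0. Ctss, at 26.5 and 42.2 against 41.9 and 27.5 CPM, and the costimulator Cd86, at 3.57 and 4.78 against 3.57 and 3.55 CPM, did not pass. The test called 1.37% of all genes higher and 2.07% lower over all cells, and 0.927% and 1.99% without the Ms4a1 and Siglech cells.

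Among 16 transcription regulators of class II, Irf4 and Pax5 rose and Irf8 and Spi1 fell over all cells. Irf4, a factor of B and plasma cells, was at 0.305 and 0.478 against 5.68 and 2.62 CPM (log2 difference 3.46, SE 0.50, adjusted p = 0.021 by edgeR with Benjamini-Hochberg adjustment). Pax5, the factor that fixes B cell identity, was at 0.0847 and 0.584 against 4.92 and 14.7 CPM. It is also on the pro-B and pre-B marker list, whose gate held 3 and 2 control and 10 and 128 Nup358-/- cells. The part of these cells in the rise of Pax5 was not tested. Irf8, needed for dendritic cells and monocytes, was at 166 and 109 against 58.8 and 48.9 CPM, a log2 difference of -1.39 (SE 0.22), which turned to 0.0894 (adjusted p = 0.91) when each cell was thinned to 1000 UMIs. Spi1, which encodes PU.1, was at 242 and 203 against 134 and 133 CPM. The call of Spi1 was lost without either Nup358-/- library (adjusted p = 0.28 and 0.34). With every deposited barcode kept, neither Irf4 nor Pax5 passed, with log2 differences of 2.64 and 3.28 and adjusted p of 0.051 and 0.087. Without the Ms4a1 and Siglech cells Irf4 (3.20, adjusted p = 0.018) and Irf8 (-1.86, adjusted p = 0.011) passed the edgeR test. The summed neutrophil list, whose gate holds much of the Irf8, was at 7238 and 4689.8 CPM in control and 1199 and 721 CPM in Nup358-/- libraries, and within that gate Irf8 was at 212 and 182 against 52.8 and 41.9 CPM, a log2 difference of -2.08 (SE 0.17, adjusted p = 2.2e-03 by edgeR). The 7 genes of the monocyte list, all detected in that gate, summed there to 774 and 862 CPM in control and 279 and 133 CPM in Nup358-/- cells, and their part in the difference of Irf8 was not tested.

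Some genes whose proteins Ciita joins at the promoter are given here, as RNA over all cells. Rfx5, a subunit of the X-box factor, was at 16.0 and 12.0 against 11.8 and 11.5 CPM, and Rfxap at 39.5 and 41.3 against 35.7 and 41.1 CPM. Nfyb, a subunit of the Y-box factor, was at 55.6 and 47.9 against 50.7 and 51.3 CPM. None of these passed, and in Rfx5 the genotypes did not overlap. Of the 16 regulators, 7 had an unadjusted p under 0.05 over all cells by the same edgeR test. Rfxank, the remaining X-box subunit, fell in ungated cells, from 13.7 and 11.1 to 7.13 and 7.35 CPM (log2 difference -0.75, SE 0.18, adjusted p = 0.046 by edgeR). It was the 1 call among 53 pathway genes tested in those cells, where 2.36% of all genes were called higher and 5.06% lower, and it was lost without either Nup358-/- library (adjusted p = 0.24 and 0.25).

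Class I genes and interferon genes gave no call over all cells, without the Ms4a1 and Siglech cells or in ungated cells by edgeR's test. Of 18 class I genes, 2, 1 and 5 had an unadjusted p under 0.05 in these sets, and of 12 interferon genes 1 in each. DESeq2, run on the first pair of sets, called 1 class I gene over all cells, 0 without the Ms4a1 and Siglech cells, and 1 interferon gene in each. H2-K1, a class I heavy chain, was at 1331 and 1294 against 1549 and 1444 CPM, a log2 difference of 0.15 (SE 0.16). B2m, its light chain, was at 649.9 and 1081.5 against 959 and 838 CPM, with the controls on both sides of the Nup358-/- libraries.

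Within gates, few pathway genes passed the same edgeR test, and most of those calls did not survive the loss of 1 library. In neutrophil-gated cells Irf8 fell, as given above, and the call held without each library in turn (adjusted p from 4.2e-09 to 2.4e-03), beside the lower monocyte list of the same gate. Ifngr1, a chain of the interferon gamma receptor, also fell there, from 78.8 and 110.1 to 51.4 and 41.4 CPM (adjusted p = 0.046), and did not pass without either Nup358-/- library (0.056 and 0.22). In this gate 1.09% of genes were called higher and 2.68% lower.

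In the megakaryocyte and erythroid gate the interferon gene Isg15 fell, from 66.2 and 175 to 36.0 and 37.0 CPM (adjusted p = 0.011 by edgeR), but not without control library 2 (-0.80, adjusted p = 0.12). Of all genes 0.260% were called higher there and 1.03% lower. In lymphoid-primed cells Ifit3 fell, from 7.17 and 20.4 to 1.63 and 0.623 CPM (adjusted p = 0.020), but not without either Nup358-/- library (0.14 and 0.47). In this gate 1.55% of genes were called higher and 2.55% lower.

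In stem-gated cells Ifi30, a lysosomal thiol reductase of antigen processing, was at 5.16 and 4.11 CPM in control and 11.9 and 16.8 CPM in Nup358-/- cells, and passed as higher (adjusted p = 0.043 by edgeR). Canx, a class I chaperone, passed as higher too, at 195 and 155 against 267 and 289 CPM. The cathepsin Ctsl passed as lower, at 47.6 and 84.6 against 29.3 and 35.9 CPM (log2 difference -1.08, SE 0.29, adjusted p = 0.022), as did Spi1, at 181 and 153 against 99.8 and 107 CPM (-0.78, SE 0.19, adjusted p = 0.013), Irf1 and Jak1. The call of Ifi30 was lost without any 1 of the 4 libraries (adjusted p from 0.097 to 0.58), as was that of Irf1 (0.055 to 0.43). Those of Canx, Jak1 and Spi1 were lost without either Nup358-/- library, that of Canx also without control library 2 and that of Jak1 also without control library 1. That of Ctsl was lost without control library 2 or Nup358-/- library 1, and its log2 difference was then -0.55 and -0.95. In this gate 4.77% of genes were called higher and 4.53% lower.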

How the data were processed

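Single-cell RNA libraries (10x Genomics 3′ v3.1) of sorted LSK cells were analyzed. The deposited matrices hold UMI counts per gene and barcode that the authors made with Cell Ranger (version 3.1 and build mm10 per the submitters' processing notes), with no normalization. Here, a barcode needed 200 detected genes and no more than 10% of UMIs from mitochondria, and left out were those with at least 3-fold more UMIs in another library. Doublets were not removed. Leaving out the 5% of cells with the most UMIs was an alternative. Kept libraries held 18846887 to 59033602 UMIs. Positions are from GENCODE on GRCm38 and promoters from RefSeq.

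The 9 genes, the marker lists and the pathway lists were chosen with earlier results of these data known. Counts were summed per library, or per library and gate with at least 20 cells in each, and tested with edgeR 4.0.16 (quasi-likelihood, TMM, filterByExpr, Benjamini-Hochberg over all genes, 0.05) in R 4.3.3 with limma 3.58.1. DESeq2 1.42.0 was an alternative. Tables were made with Python 3.11.15, numpy 2.4.6, scipy 1.17.1, pandas 2.3.3 and matplotlib 3.10.9. The fits were tested on simulated data. Shares of cells with a UMI used cells thinned to 1000 UMIs, leaving out shallower cells (8 to 91 a library), with exact 95% intervals. The 9 genes were measured in each gate, but not every value is given. No level is stated for the monocyte, macrophage, T and NK, and basophil and mast gates. Other pathway genes were named if past the adjusted threshold, at most 5 a direction and list, with up to 4 a list whose role was needed. Other gates, filters, blocks and left-out libraries are given in the closing section.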

Additional observations from a re-analysis of the deposited data

Results flagged for a closer look

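The difference of H2-DMa between Nup358-/- and control cells differed in sign between gates. Its log2 difference was 0.17 (SE 0.23) in the megakaryocyte and erythroid gate, where both Nup358-/- libraries (93.2 and 85.8 CPM) were above both controls (83.4 and 68.6 CPM). It was -0.36 (SE 0.17) in the lymphoid-primed gate and -0.18 (SE 0.15) among ungated cells, where both Nup358-/- libraries were below both controls. The difference between gates was not tested, and it rests on 26 and 32 cells in 2 of the 4 megakaryocyte and erythroid sums. With all deposited barcodes the values were 0.023, -0.32 and -0.20 in the same order.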

How the results depend on the processing

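Over all cells, the log2 difference of Cd74 was above 0 and that of H2-Ob below 0 in 12 of 12 settings, and in 13 of 13 without the Ms4a1 and Siglech cells. Alternatives with a Kit UMI required, with the within-gate block and with crossed numbers were chosen after seeing the data. The cause of the changes given here was not tested.

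With all deposited barcodes Cd74 was 1.80 over all cells and 1.195 without the Ms4a1 and Siglech cells, and H2-Ob was -1.003, -1.22 and, after the wider removal, -1.21. With a Kit UMI required, Cd74 was 1.79 and 1.59, and H2-Ob was -1.51, -1.53 and -1.90. After thinning to 1000 UMIs, which weights cells alike, Cd74 was 3.39 and 2.18, H2-Ob was -0.31 over all cells and -1.22 after the wider removal, H2-Oa turned to 0.29 and Irf8 to 0.0894 over all cells, and 1 gene in place of 4 lay below in both Nup358-/- libraries. Setting cells apart at 2 UMIs gave 1.56 for Cd74. With gates at 0.2% of UMIs, Cd74 in ungated cells was 0.69 and 2 genes lay above; H2-DMa was then no longer higher in the neutrophil gate (0 genes by edgeR). Unthinned, the share with a Cd74 UMI differed by 26.4 points over all cells, 21.9 without Ms4a1 and Siglech cells and 21.9 in ungated cells. Thinned, it differed by 9.94, 4.96 and 2.46 points. The share with an H2-Ob UMI differed by -3.64, -4.89 and -5.15 points unthinned and by -0.405, -1.50 and -1.39 points thinned. The thinned H2-Ob shares of the genotypes overlapped over all cells and in ungated cells.

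The number of other pathway genes past the threshold was unstable. It was 5 over all cells, 9 with DESeq2, 11 with no filter, 2 without the top 5% of cells, 2 with a Kit UMI and 8 thinned. Without the Ms4a1 and Siglech cells it was 2, then 5 with DESeq2, 9 with no filter, 1 with all barcodes and 4 thinned. After the wider removal it was 0 by edgeR, with 1, 4, 1 and 1 of the 4 lists at an unadjusted p under 0.05, then 2 with DESeq2, 6 with no filter, 1 with a Kit UMI and 1 thinned. In ungated cells it was 1, then 2 with all barcodes and 2 with gates at 0.2%. Against ungated cells, DESeq2 called 0 genes lower in the lymphoid-primed gate and 0 in the stem gate, with 2 in each at an unadjusted p under 0.05, and no filter gave 2 in the stem gate.

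Replicate numbers are shared by control and Nup358-/- libraries, and the deviations of libraries with 1 number correlated at -0.119, -0.107, -0.125 and -0.118. With 2 libraries per genotype, these correlations cannot show or exclude a shared batch. With the number as a replicate block, 1257 genes were called over all cells against 474, 1248 against 400 without the Ms4a1 and Siglech cells, 320 against 48 after the wider removal and 532 against 909 in ungated cells. Pathway genes called under the block were 11, 9 and 1 in the first 3 sets, Cd74 was 2.02, 1.43, 0.83 and 0.26 in the 4 sets and H2-Ob -1.18, -1.43, -1.61 and -1.86. Rfxank was lost under the block in ungated cells, as were Ifi30, Canx, Jak1 and Irf1 in the stem gate. With crossed numbers 1735, 1587, 118 and 2614 genes were called, and 12, 9, 1 and 14 pathway genes.

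Where 1 library was left out, the lone library was taken to vary like the others. The ranges were -1.25 to -1.12 for H2-Ob over all cells, 0.44 to 1.25 for Cd74 after the wider removal and -0.07 to 0.61 for Cd74 in ungated cells. The pathway genes called were 5 to 17 over all cells, 3 to 16 without the Ms4a1 and Siglech cells, 0 to 16 after the wider removal and 0 to 17 in ungated cells. Genes with all Nup358-/- libraries above all controls were 3 to 5 after the wider removal and 0 to 5 in ungated cells, where those below were 4 to 7, counts that rise by construction with fewer libraries. Genes called lower against ungated cells were 0 to 4 in the lymphoid-primed, 3 to 6 in the megakaryocyte and erythroid, 5 to 7 in the neutrophil and 0 to 1 in the stem gate, and 0 to 1 were called higher in the neutrophil gate. With gates at 0.2% of UMIs the stem and the megakaryocyte and erythroid gates had fewer than 20 cells in a library and gave no value, and thinned Ciita was under the count filter. The depth of 13 to 105 UMIs a library limits what can be said of Ciita.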

Other observations

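Ly6a, which encodes Sca1, was detected in 81.4% and 60.1% of mature-B-gated Nup358-/- cells. The monocyte list summed to 574 and 428 CPM in control and 199 and 83.4 CPM in Nup358-/- libraries, while the macrophage list summed to 8.77 and 4.83 against 20.1 and 9.29 CPM. Among Nup358-/- cells, there were 22.8 H2-Aa UMIs per 100 Cd74 UMIs in the mature B gate, 27.4 in the stem gate, 39.6 among ungated cells and 45.3 in the neutrophil gate.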
